A study of Mus musculus with 6 samples.

Results

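The genes described here encode the subunits of the ionotropic and metabotropic glutamate receptors, of the GABA-A receptors and of the glycine receptors. They were taken by symbol (Gria, Grik, Grin and Grid with a number, Grm with a number, Gabr with a subunit letter, Glra and Glrb) among the autosomal protein-coding genes of the mouse build GRCm38. The pattern took 45 of 20665 such genes. Of these, 44 are receptor genes: 3 AMPA, 5 kainate, 7 NMDA, 2 delta, 8 metabotropic glutamate, 16 GABA-A and 3 glycine receptor genes. The remaining gene, Grid2ip, encodes delphilin, a synaptic scaffold protein; it was kept and is reported as no receptor. A further 6 genes of the pattern are X-linked and lie outside the rule.

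P19 chromatin was precipitated natively, without crosslinking, with antibodies to histone H3 carrying crotonyl (H3K9cr) or acetyl (H3K9ac) groups on lysine 9, and the DNA was sequenced. P19 is a mouse embryonal carcinoma line, and the cells of every library were grown in proliferation medium with serum and received no other treatment that the labels name. Each mark has 2 biological replicates from 1 antibody, and what belongs to the antibody and what belongs to the mark cannot be told apart. The 2 inputs were not analysed here. One list of peaks per library was used, with 28360 and 28345 peaks for H3K9cr and 26096 and 27474 for H3K9ac; read depth is not given in the sources used here.

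A peak is a stretch in which the authors' peak caller found more fragments than in the local background. Its fold enrichment is the caller's ratio of peak to background, which is given here for each library and ranked only within its own list, as the percentile of the peak in that list. A gene was counted as occupied in a library when a peak overlapped its record, or the 2.5 kb on either side, by at least 1 bp. The lists hold only peaks past the caller's threshold, so a gene without a peak is not a gene shown to lack the mark. In a bulk population, a mark carried by fewer cells and a weaker mark in every cell cannot be told apart.

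As background, AMPA, kainate and NMDA receptors are glutamate-gated cation channels that carry fast excitation in the brain, while the 8 metabotropic receptors couple glutamate to G proteins. GABA-A and glycine receptors are chloride channels that carry fast inhibition, each built as a ring of subunits drawn from its gene family. P19 cells can be turned into neurons with retinoic acid, and most of these receptors are known from differentiated neurons. Acetylation and crotonylation of histone H3 are both marks of open chromatin at promoters and enhancers of active or poised genes, and they are added by partly the same enzymes. Many neuronal genes hold the RE1 element, through which the repressor REST keeps them silent outside neurons.

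The bases just upstream of 9 listed transcription starts are given first, to show the CG dinucleotides that a comparison of starts with and without a peak turns on further down. Each line gives the 150 bases that end just before the start, 5′ to 3′ on the gene's strand, from RefSeq (GRCm38.p6), with every CG in capitals. The first set holds the 3 genes with the highest fold enrichment in their weakest library: the kainate receptor gene Grik5 (chr7:25072370-25072519, minus strand), the NMDA receptor gene Grin2d (chr7:45866682-45866831, minus strand) and the GABA-A receptor gene Gabra2 (chr5:71095850-71095999, minus strand). The strongest peaks of Grik5 and Grin2d lie at neighbouring genes, and at the starts shown here the weakest library had 30.2 and 62.0. The listed starts of Grik5 and Grin2d lie within their gene records, which reach further upstream, and that of Gabra2 is the end of its record.
Grik5: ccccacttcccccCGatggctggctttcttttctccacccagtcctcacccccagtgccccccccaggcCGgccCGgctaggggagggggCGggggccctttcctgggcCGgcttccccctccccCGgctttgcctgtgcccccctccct
Grin2d: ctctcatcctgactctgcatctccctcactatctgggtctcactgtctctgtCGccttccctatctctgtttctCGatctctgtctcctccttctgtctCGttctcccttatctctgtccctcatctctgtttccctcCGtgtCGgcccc
Gabra2: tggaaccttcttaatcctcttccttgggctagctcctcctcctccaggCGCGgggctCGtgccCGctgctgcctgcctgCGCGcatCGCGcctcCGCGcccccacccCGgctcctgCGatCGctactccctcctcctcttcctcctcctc

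The second set shows 1 occupied gene of each of 3 other families: Glrb, the beta subunit that anchors glycine receptors (chr3:80913661-80913810, minus strand), the AMPA receptor gene Gria4 (chr9:4796235-4796384, minus strand) and the metabotropic receptor gene Grm8 (chr6:28135147-28135296, minus strand). In each of them the listed start is the end of the gene record. These stretches hold 19, 14 and 24 CG, against 6, 5 and 13 in Grik5, Grin2d and Gabra2.
Glrb: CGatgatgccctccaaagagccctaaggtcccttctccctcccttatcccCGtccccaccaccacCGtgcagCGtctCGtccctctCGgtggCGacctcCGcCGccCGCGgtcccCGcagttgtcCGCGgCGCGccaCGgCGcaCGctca
Gria4: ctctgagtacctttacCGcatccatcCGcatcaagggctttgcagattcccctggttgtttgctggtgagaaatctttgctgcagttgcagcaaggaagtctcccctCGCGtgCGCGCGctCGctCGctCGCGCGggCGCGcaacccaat
Grm8: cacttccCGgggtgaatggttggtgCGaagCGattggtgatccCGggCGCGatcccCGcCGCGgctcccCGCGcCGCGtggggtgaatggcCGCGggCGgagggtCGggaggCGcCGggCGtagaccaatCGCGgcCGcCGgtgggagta

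The third set shows 2 genes without a peak in any library, Gabrp (chr11:33578958-33579107, minus strand) and Gabrr2 (chr4:33062962-33063111, plus strand), with 0 and 1 CG. It ends with Grin1 (chr2:25319188-25319337, minus strand), which was added after its values were seen: the stretch holds 23 CG, and a peak lay at this start in 1 library only.
Gabrp: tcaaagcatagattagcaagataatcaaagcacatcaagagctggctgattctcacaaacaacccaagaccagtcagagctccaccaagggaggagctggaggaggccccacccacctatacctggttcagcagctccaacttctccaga
Gabrr2: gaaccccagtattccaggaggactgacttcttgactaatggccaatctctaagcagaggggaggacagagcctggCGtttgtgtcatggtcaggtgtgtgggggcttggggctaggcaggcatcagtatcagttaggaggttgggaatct
Grin1: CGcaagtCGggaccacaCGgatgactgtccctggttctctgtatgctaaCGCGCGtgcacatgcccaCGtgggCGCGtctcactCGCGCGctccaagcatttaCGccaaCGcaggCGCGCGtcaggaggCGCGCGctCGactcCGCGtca

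Peaks of both marks lay at all glutamate and glycine receptor genes of the set, and the genes without a peak in every library were GABA-A receptor genes. A peak was present in all 4 libraries at 40 of 45 genes (88.9%), where 69.5% of all autosomal protein-coding genes had one. All 3 AMPA, 5 kainate, 7 NMDA, 2 delta, 8 metabotropic and 3 glycine receptor genes were occupied in every library, as was Grid2ip. Of the 16 GABA-A receptor genes, 11 were occupied in every library, 2 in some and 3 in none.

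The GABA-A receptor genes split by subunit class. All 3 beta genes and all 3 gamma genes were occupied in every library, as were 4 of 5 alpha genes and the delta gene Gabrd. None of the 3 rho genes was, although the rho subunits form GABA-gated channels best known from the retina. Gabrr2 (chromosome 4, 33057712 to 33095865) and Gabrr3 (chromosome 16, 59407382 to 59461739) had no peak in any library. Gabrp (chromosome 11, 33550781 to 33578978), which encodes the pi subunit found mainly outside the brain, had none either.

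Gabrr1, the rho1 gene (chromosome 4, 33132556 to 33163588), had a peak inside the gene, with summits 14536 to 14715 bp from its start and a fold enrichment of 5.51 and 5.91 in the H3K9cr libraries and 4.26 in the first H3K9ac library. The second H3K9ac library had no peak there. These peaks ranked low, between the 5.3rd and the 17.2nd percentile of their lists. Gabra6, the alpha6 gene known from cerebellar granule cells (chromosome 11, 42306437 to 42321072), had a peak of 300 bp in the second H3K9ac library alone. Its fold enrichment of 2.94 placed it at the 0.4th percentile of that list. At Gabrr1 both H3K9cr values were above the single H3K9ac value, which comes from a separate list and carries no test.

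Gene length went with occupancy across all genes, and the receptor genes are long. The median record was 137458 bp for the 45 genes and 17491 bp for all genes. Among all genes, 57.3% of those under 20 kb, 81.3% of those of 20 to 100 kb and 91.3% of those of 100 kb or more had a peak in every library. Among the receptor genes and Grid2ip the counts were 5 of 6, 11 of 15 and 24 of 24 in these classes. The part of gene length in the 88.9% was not tested.

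Peaks within 1 kb of a listed transcription start were counted separately. The RefSeq table lists a start for 30 of the 45 genes, and 23 of these (76.7%) had a peak there in all 4 libraries, beside 64.1% of the 16457 genes of the background with a listed start. The 7 others were Grin1, Grin2c, Gabra6, Gabrp and the 3 rho genes. The 15 genes without an entry include Gria1, Grik1, Grin2a, Grin2b, Grin3a, Grid1, Grm4, Grm5, Gabrd and Glra1.

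The receptor genes carried the marks widely but with peaks of middle rank. Taking the strongest peak of each occupied gene, the median percentile was 54.4 and 54.6 in the H3K9cr lists and 47.7 and 52.3 in the H3K9ac lists. Over all occupied autosomal protein-coding genes it was 77.7, 77.7, 75.6 and 77.2. The kainate receptor genes stood highest of the families with more than 2 genes (68.8, 69.1, 64.9 and 69.3). The metabotropic receptor genes stood lowest of these in every library (43.7, 42.6, 39.8 and 40.7), and the GABA-A receptor genes stood at 47.3, 54.0, 41.4 and 52.4. Differences between families are descriptions, since each rests on few genes.

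**Figure D1:**
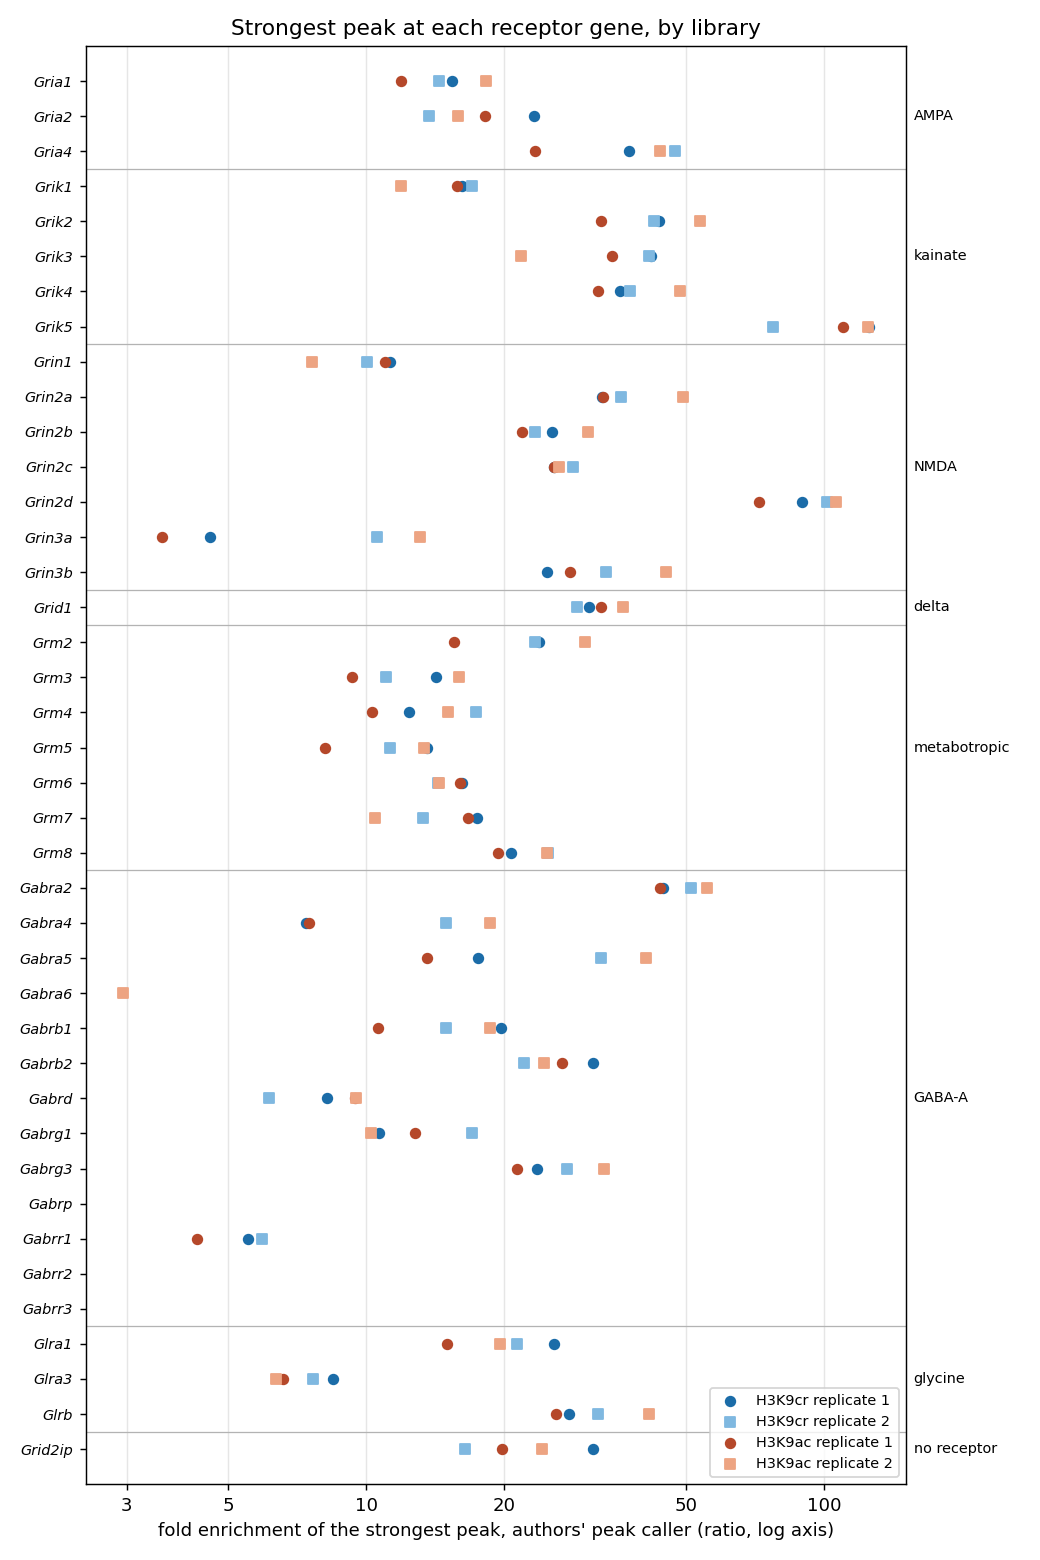
Fold enrichment of the strongest peak at 40 of the 45 genes (log axis; the others are not reported here), with 1 point per library, coloured by mark and shaped by replicate, and genes grouped by family. Grik5 and Grin2d lie far to the right of the rest, Grin3a spreads most between replicates of a mark, and Gabrp, Gabrr2 and Gabrr3 have no point.

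Among the AMPA receptor genes, Gria4 (GluA4, chromosome 9, 4417893 to 4796234) had the strongest peak. Its fold enrichment was 37.6 and 47.3 for H3K9cr and 23.4 and 43.8 for H3K9ac, in a single region over the start of 2768 to 2898 bp. The marks overlapped, and the first H3K9ac library was lowest. Gria2 encodes GluA2, the subunit that makes AMPA channels nearly impermeable to calcium (chromosome 3, 80681450 to 80804227). It had a peak at its listed start of 8.53 and 8.47 for H3K9cr and 5.89 and 9.16 for H3K9ac. A stronger peak, with summits 2066 to 2282 bp downstream, had 23.3 and 13.7 for H3K9cr and 18.2 and 15.9 for H3K9ac, so the start itself was not the most enriched site of the gene in any library. Gria1 (GluA1) had 1 region, at an end of its record, of 15.4, 14.4, 11.9 and 18.2 in the order H3K9cr replicates 1 and 2, then H3K9ac replicates 1 and 2. That order is used for every set of 4 values below.

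Of the kainate receptor genes, Grik5 (chromosome 7, 25009849 to 25075694) encodes the high-affinity subunit GluK5. It had the strongest peak of all 45 genes, except in the second H3K9cr library, where Grin2d was higher. The Grik5 peak lay at a neighbour. Its values were 125, 77.5, 110.0 and 125, at the end of the Grik5 record where Zfp574, a zinc finger gene, begins. Another peak at Zfp574 gave 72.8, 68.7, 74.4 and 80.5. At the listed start of Grik5, whose upstream bases are shown above, the values were 41.0, 39.9, 30.2 and 48.4. The record of Grik5 thus holds sites of both genes. A further region at the far end of the record, away from Zfp574, had 19.4, 18.9, 18.6 and 22.2.

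Grik2 (GluK2, chromosome 10, 49093680 to 49790161) had 2 regions. At its start the fold enrichment was 19.4, 18.5, 16.8 and 21.6. A stronger peak lay further into the gene, with 43.6, 42.6, 32.5 and 53.6. Its summits lay 5569 to 5573 bp downstream, almost at the same base in all 4 libraries. Grik4, which encodes the other high-affinity subunit GluK4 (chromosome 9, 42518182 to 42945000), also had 2 strong sites. Its start had 20.4, 37.8, 25.3 and 48.4, and a site 46630 to 46783 bp downstream had 35.9, 33.1, 32.2 and 40.2. By fold enrichment the downstream site was the stronger in the first replicate of either mark, and the start in the second. The pileup, the coverage signal at the summit, was higher at the start in every library. It was 121, 114, 90 and 144 at the start, against 103, 99.5, 82 and 119 at the downstream site.

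Grik3 (GluK3, chromosome 4, 125490259 to 125714173) had the longest peak of the set and the most regions. The peak over its start measured 3794 and 4136 bp in the H3K9cr libraries, against 4100 and 3917 bp in the H3K9ac libraries, with a fold enrichment of 42.0, 41.5, 34.5 and 21.8. Peaks of all libraries merged into 9 regions at the gene, but only 3 had a peak in every library. The other 6 were weak sites inside the gene with a fold enrichment of at most 6.60, of which 2 were found in the first replicate of both marks, and 4 in a single H3K9cr library. Grik1 (GluK1) had 1 region, of 16.2, 17.1, 15.8 and 11.9.

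The strongest peaks of the NMDA receptor genes ranged from 3.57 (Grin3a) to 106 (Grin2d) in single libraries. Grin2d (GluN2D, chromosome 7, 45831883 to 45871194) had 89.8, 102, 72.1 and 106 at its strongest peaks, which lay at Kdelr1, a receptor that returns proteins to the endoplasmic reticulum, or at Grwd1, which encodes a WD-repeat protein. At its own start Grin2d had 67.3, 62.9, 62.0 and 72.2, the highest of any listed start in the set. In all it had 7 regions, 6 of them in every library, including a site 9114 to 9132 bp downstream of the start of 20.4, 15.4, 20.1 and 20.3. Grik5 and Grin2d were the only 2 of the 45 genes whose strongest peak lay at a coding gene outside the set in every library.

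Grin2a (GluN2A, chromosome 16, 9567901 to 9996083) had a single region, at an end of its record, of 32.7, 36.1, 32.9 and 49.1. Grin2b (GluN2B) had 25.5, 23.4, 21.9 and 30.5 at an end of its record. Grin2a and Grin2b encode the main glutamate-binding NMDA subunits of the forebrain, and in both genes the second H3K9ac library was highest. Grin2c (GluN2C, chromosome 11, 115249169 to 115267297) was strongest at the far end of the gene, with 25.8, 28.3, 25.8 and 26.4. Its region near the start had 9.47, 13.9, 7.63 and 19.4 with summits 1875 to 1930 bp downstream, close to an end of Fdxr, the ferredoxin reductase gene, and in the first H3K9ac library the peak did not come within 1 kb of the start.

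Grin1 encodes GluN1, the subunit that every NMDA receptor needs (chromosome 2, 25291177 to 25319187). In 3 libraries it had no peak at its start, and in the second H3K9ac library it had a weak one of 3.42. All libraries had peaks 7938 to 8027 bp into the gene (11.3, 7.48, 11.0 and 7.08) and 13833 to 13857 bp into it (8.74, 4.66, 5.42 and 4.64). They also had a peak of 8.87, 10.03, 6.68 and 7.62 at the far end, where Lrrc26 and Tmem210 lie. Grin1 was thus occupied by the rule in every library through sites other than its start.

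The GluN3 genes stood apart from each other. Grin3b (chromosome 10, 79970397 to 79977190) had a peak at its start of 24.8, 33.4, 27.8 and 45.2. Grin3a (chromosome 4, 49661611 to 49846023) had 4.55, 10.6, 3.57 and 13.1. By its weakest library it was the lowest of all genes of the set occupied in every library. At Grin3a both second replicates were above both first replicates, so the marks overlapped. GluN3 subunits bind glycine in place of glutamate.

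Among the delta receptor genes, Grid1, whose product binds secreted cerebellins at synapses, was marked at an end of a very long record. Grid1 (chromosome 14, 34820003 to 35583387) had 30.7, 29.0, 32.5 and 36.3, and the second H3K9ac library was highest. By percentile within each list the first H3K9ac library was highest, with 61.0, 60.4, 64.9 and 61.9. Grid1 had 4 regions, of which 2 lay in every library, and the other 2 were missing from the first H3K9ac library only. Grid2ip (chromosome 5, 143357330 to 143391779) had 5 regions and all 5 were found in every library. Its peaks at the 2 listed starts gave 18.8, 15.9, 16.9 and 24.2 at the first and 10.03, 8.10, 11.2 and 10.1 at the second.

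The 8 metabotropic glutamate receptor genes were all occupied, 7 of them by a single region found in every library. The group I gene Grm5, whose receptor acts through Gq, had 13.6, 11.3, 8.14 and 13.3. Of the group II genes, Grm2 had 23.9, 23.3, 15.6 and 30.1 and Grm3 had 14.2, 11.0, 9.30 and 16.0. At all 3 of these genes the first H3K9ac library had the lowest value. The group III genes Grm4, Grm6, Grm7 and Grm8 ranged from 10.3 to 25.0 in their strongest peaks. Grm6 is known from the ON bipolar cells of the retina, and in P19 cells its start peak (16.2, 14.4, 16.0 and 14.4) was present in all 4 libraries.

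Among the GABA-A receptor genes, Gabra2 (chromosome 5, 70958392 to 71095849) was strongest, with 44.6 and 51.2 for H3K9cr and 43.8 and 55.6 for H3K9ac. Its replicates differed more than its marks. Gabrd, the gene of the extrasynaptic delta subunit (chromosome 4, 155384979 to 155398098), had 8.21, 6.14, 9.47 and 9.49. By its weakest library it was among the 3 lowest of the 40 genes occupied in every library. The region at Gabrd also touched the record of Cfap74.

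GABA-A receptor genes lie in clusters, and 2 regions served 2 genes each. Gabra4 and Gabrb1 overlap head to head on chromosome 5, and a region at 71656825 to 71658913 covered both listed starts with 7.39, 15.0, 7.52 and 18.6. At this region the second replicates of the marks were above the first replicates. Gabra5 had a region at its listed start of 16.5, 17.8, 13.6 and 20.6. Genes that share a peak are not independent counts.

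Of the glycine receptor genes, Glrb (chromosome 3, 80843598 to 80913660) had 27.8, 32.2, 26.0 and 41.5 over its start. Glra1, the adult alpha1 gene (chromosome 11, 55514239 to 55608198), had 25.7, 21.4, 15.0 and 19.6, and Glra3 had 8.47, 7.66, 6.59 and 6.35. Glrb supplies the subunit shared by synaptic glycine receptors, and it was strongest of the 3 genes in every library. In Glra1 and Glra3 both H3K9cr values were above both H3K9ac values, as they were in Grik1 and Grik3. Grid1 and Gabrd showed the reverse. The share of all genes with such values was not computed, and a comparison of values from separate lists carries no test. The separation also depended on the measure. By percentile the marks overlapped at Grik1 (45.3 and 47.8 for H3K9cr, 45.6 and 35.1 for H3K9ac) and stayed apart at the other genes just named. By pileup they overlapped at Grik1, Grik3 and Grid1 and stayed apart at Glra1, Glra3 and Gabrd.

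Peaks of the 4 libraries merged into 90 regions at the 45 genes, and 69 of them held peaks from all 4 libraries. This is near the background, where 79.1% of the 22501 regions at autosomal protein-coding genes did. H3K9cr was found in both replicates without H3K9ac in 1 region, inside Grm4 (3.77 and 5.91), where the background is 1.98%. The reverse occurred in 0 regions, with a background of 0.196%. The remaining regions followed neither mark: 11 had a peak in 1 library, 7 in 3 libraries and 2 more in 2.

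The regions were sorted by their place in the gene. Of 92 pairs of a gene and a region, 28 lay within 1 kb of a listed start, and 27 of these were in every library. Another 24 lay at an end of the record, of which all 24 were, and 3 in the flank, of which all 3 were. Inside the genes, 17 of 37 were. The same shares were not computed over all genes. The pairs at an end of the record include genes without a listed start, such as Gria1, Grin2a and Grm5. In these genes the start and the far end could not be told apart. Of the 92 pairs, 7 lay at a coding gene outside the set, namely at Zfp574, Lrrc26 and Tmem210, Tmem104, Fdxr, Grwd1 and Kdelr1, and without these regions 40 genes were still occupied in every library.

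Per library, the numbers at these genes differed little. A peak was present at 41 of the 45 genes in every library, so the difference between marks was 0 (exact two-sided permutation test, p = 1, n = 2 each). Regions with a peak numbered 79 and 81 for H3K9cr and 76 and 78 for H3K9ac, a mean of 80 ± 1.41 against 77 ± 1.41 (SD, n = 2 each, exact permutation p = 0.333). This is the smallest p that 2 libraries against 2 allow, and the H3K9cr lists were also longer. Peaks covered 108735 ± 2452 bp at the genes for H3K9cr and 103396 ± 8836 bp for H3K9ac (SD, n = 2 each, exact permutation p = 0.667). The median length of these peaks was 1145 and 1158.5 bp in the H3K9cr libraries, against 991.5 and 1268 bp in the H3K9ac libraries, so the H3K9ac replicates lay on either side of both H3K9cr libraries.

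The length covered by peaks at each gene, its record with 2.5 kb on each side, was compared between marks with limma after log2 transformation and centring on the library median. Of the 14372 genes with a peak in every library, 0 (0.0%) passed an adjusted p of 0.05, and 0 of the 40 genes of the set among them did. Over all genes the smallest adjusted p was 0.597. Unadjusted, 849 genes (5.91%) had a p under 0.05, among them 4 of the 40, including Grm7 and Grin3b. The median difference, H3K9cr minus H3K9ac, was 0.01 on the log2 scale over the 40 genes and -0.01 over all genes tested. H3K9cr was the wider mark at 20 of the 40 and at 47.0% of all genes. Without centring it was wider at 31 of the 40 and at 81.3% of all genes, and the median length covered over all genes tested was 2396 and 2439 bp in the H3K9cr libraries, against 2211 and 2351 bp in the H3K9ac libraries.

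At most of the 40 genes the centred lengths of the marks overlapped. Both H3K9cr libraries were above both H3K9ac libraries at 3 of 40 genes (Grin3a and Grik4 among them), beside 16.1% of all genes tested. The reverse held at 12 of 40, beside 20.5%, among them Gria4, Grik1, Grik5, Grin1, Grin2a, Grin2d, Grin3b, Grm5 and Grm7. At the other 25 the centred lengths overlapped.

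The largest difference belonged to Grin3a, the gene with the lowest fold enrichment in its weakest library. Grin3a had 1057 and 1394 bp covered by H3K9cr, against 359 and 874 bp by H3K9ac, a difference of 1.03 ± 0.420 on the log2 scale (limma estimate ± SE, adjusted p = 0.866). Both H3K9cr libraries were higher, but the H3K9ac replicates were far apart too. Without H3K9ac replicate 1 the difference was 0.43, and without H3K9ac replicate 2 it was 1.63. Glra1 had 1772 and 2170 bp against 983 and 1837 bp (0.46 ± 0.286 by limma, adjusted p = 0.892). This difference was 0.055 without H3K9ac replicate 1, 0.87 without H3K9ac replicate 2 and 0.20 with equal numbers of peaks.

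In the other direction, Grm5 had 708 and 1063 bp covered by H3K9cr, against 1156 and 1188 bp by H3K9ac (-0.52 ± 0.206 by limma, adjusted p = 0.862). At this gene an inner region was missing from the first H3K9cr library. The difference was -0.24 without that library and -0.80 without H3K9cr replicate 2. In the setting that counted only 2.5 kb around starts it was -0.0041. No start is listed for Grm5, so that value does not describe a known start. Grin3b had a small and steady difference, 928 and 951 bp against 1091 and 1100 bp (-0.31 ± 0.0994, adjusted p = 0.768). The smallest unadjusted p belonged to Grm7, with 2173 and 2266 bp against 2502 and 2507 bp. By limma its difference was -0.26 on the log2 scale, with an unadjusted p of 0.0119 and an adjusted p of 0.644. None of these passed the test.

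**Figure D2:**
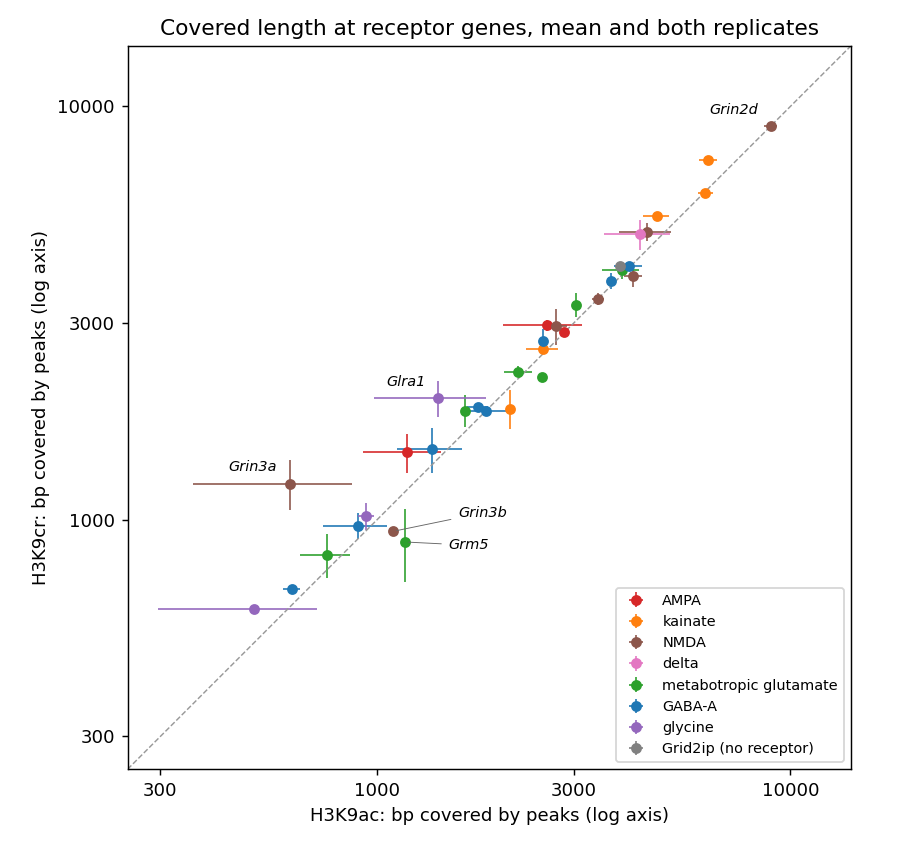
Base pairs covered by peaks at 35 of the 40 genes with a peak in every library, H3K9ac across and H3K9cr up (both log axes), with points at the mean, bars from the lower to the higher replicate, colours for families and a dashed line of equality. Grin2d, with the most, lies on the line, and Grin3a and Glra1 lie above it with long bars.

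At most of the starts measured, the summits of all 4 libraries lay within 300 bp of each other. A region at the start with a peak in all 4 libraries was measured at 24 genes, the stronger region where there were 2. These are the 23 above and Grin2c, whose merged region comes within 1 kb of the start although not every peak does. The summit, the highest point of the peak, lay downstream of the start in all 4 libraries at 18 of them, upstream in all 4 at Grik5, Grm8 and Gabra2, and on both sides at Grm7, Gabrb2 and Gabrg1. The median position was 267 and 203 bp downstream in the H3K9cr libraries, against 184.5 and 227.5 bp in the H3K9ac libraries.

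The 4 summits of a gene spanned 181 bp in the median, and 300 bp or less at 18 of the 24. Gabra2 had the tightest set, with summits from -435 to -422 bp relative to its start, a range of 13 bp. Grik3, with the longest peak, had the widest range, 823 bp. The median distance between summits was 41 bp between H3K9cr replicates, 42 bp between H3K9ac replicates and from 25 to 72 bp between libraries of different marks, a range that includes both replicate distances. No test was made on these distances.

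**Figure D3:**
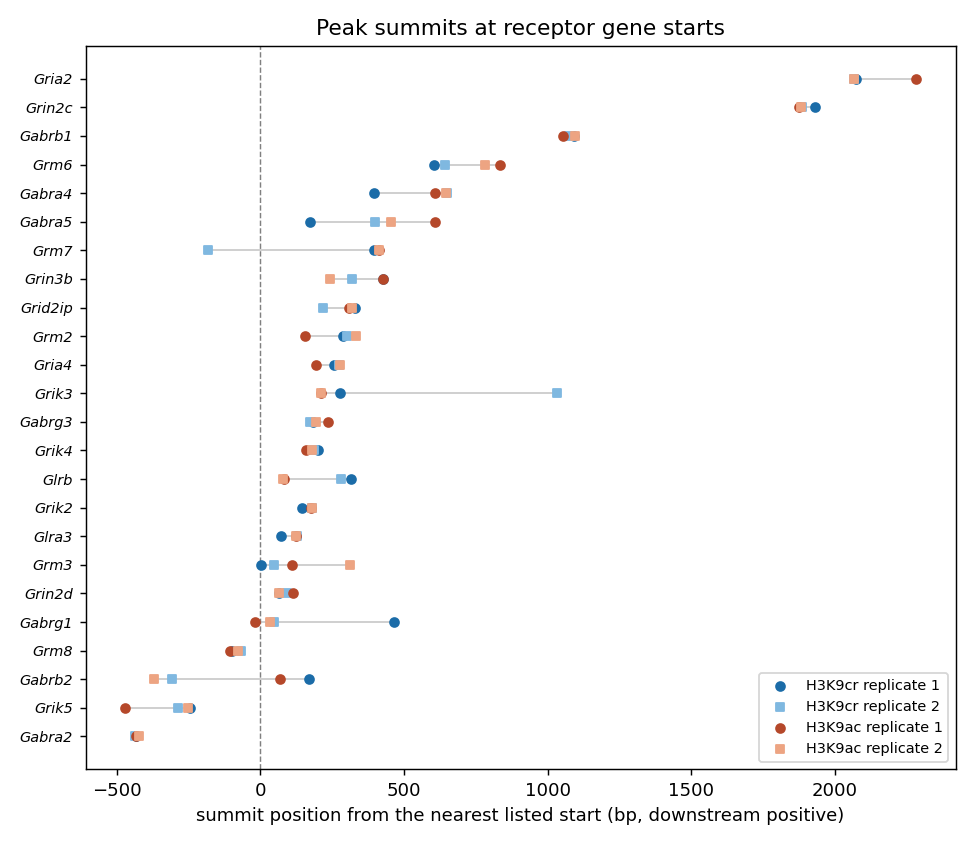
Summit position relative to the nearest listed start (bp, downstream positive) at the 24 genes with a start region in all 4 libraries, with 1 point per library and a grey line over their range. Summits lie downstream of the start in all 4 libraries at 18 genes, Gria2 and Grin2c lie near 2 kb downstream, and Gabra2, Grik5 and Grm8 lie upstream.

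CG content of the promoter went with a peak at the start over all genes, and the receptor genes followed it with exceptions. In the RefSeq promoter window, from 250 bases before to 50 after the first listed start, the ratio of observed to expected CG had a median of 0.771 at the 10548 starts with a peak in all 4 libraries and 0.174 at the other 5909. Among the receptor genes and Grid2ip it was 0.541 at 23 starts with such a peak and 0.212 at the 7 others. Gabra6, Gabrp, Gabrr2 and Gabrr3, which lacked a start peak, had ratios of 0.155, 0.212, 0.112 and 0.182. Gabrr1 (0.546) and Grin2c (0.629), also without a start peak in every library, lay above the median of the 23. The low ratio is visible in the printed stretches of Gabrp and Gabrr2, which hold 0 and 1 CG.

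The exceptions lay on both sides. Grin1 had a ratio of 1.20, higher than 99.3% of all promoters, without a start peak in 3 of 4 libraries. Grik5 (0.277) and Grin3b (0.172) had low ratios with start peaks above 24 in every library, and Gabrg1 (0.276) and Grm6 (0.218) had low ratios with start peaks above 10. Grik4 (1.16), Grik3 (1.01), Grm8 (0.986) and Glrb (0.962) had the highest ratios among the starts with peaks. The Grik5 window was 72% G and C all the same, so its low ratio was not a low content of these bases.

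**Figure D4:**
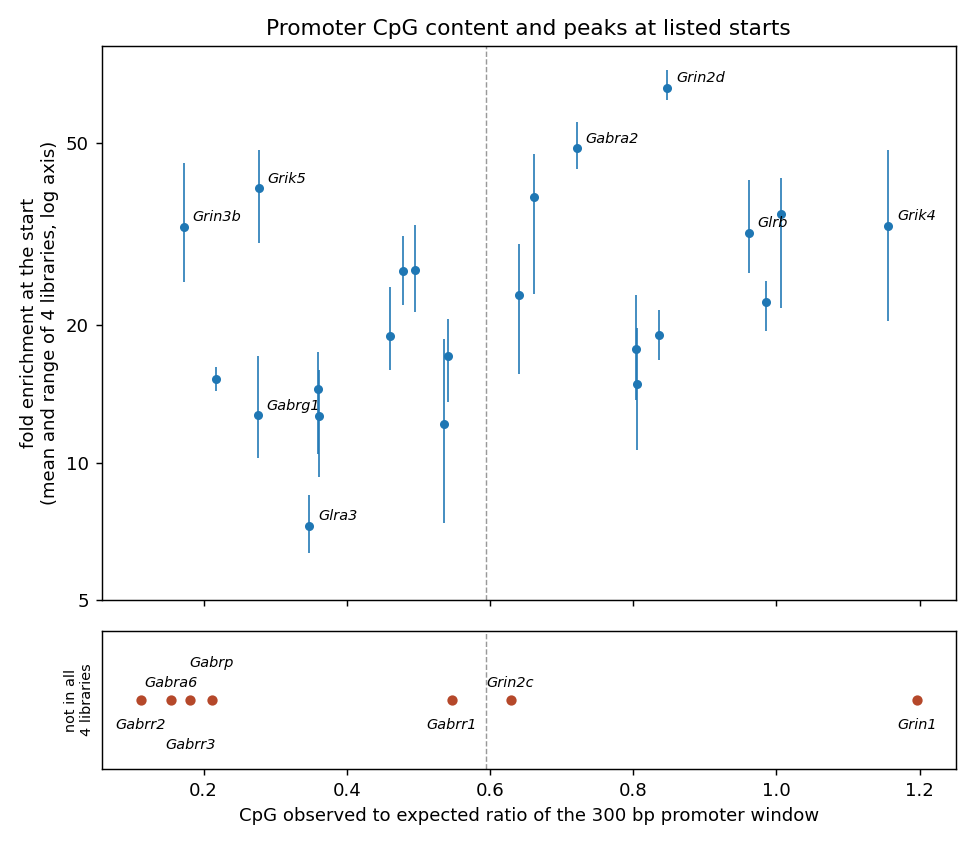
Fold enrichment at the start (log axis, mean and range of 4 libraries) against the observed to expected CpG ratio of the promoter window for occupied starts, with the starts that lack a peak in some or all libraries in the strip below and a dashed line at the median of all promoters. Grin1 stands at the far right of the strip, and Grin3b and Grik5 stand at the upper left with few CpG.

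Short motifs were counted on both strands of the same windows. TATAAA, the core of the TATA box, was found in 2 of 30 windows (Gabrb2 and Grin3b), beside 13.5% of all promoters. GGGCGG, the core of the site of Sp1 factors, was found in 17 of 30, beside 47.3%; it contains a CG and so rises with CG content. Parts of the RE1 element, CAGCACC and GGACAGC, were found in 1 (Grm2) and 3 (Grm2, Gria2 and Glrb) of 30 windows, beside 7.22% and 7.04%. The second ends with the letters CAGC that open the first. Grm2 was the only one of the 30 with both, and all 3 genes had a start peak in every library. A match is a run of letters and not a bound site.

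Other genes of these synapses were read in the same way, but peaks at neighbouring coding genes were not set apart. Of 34 genes for GABA-B receptors and for auxiliary and scaffold proteins, 33 (97.1%) had a peak in every library, and the median percentile of their strongest peaks was 69.9, 69.0, 65.5 and 65.8. The strongest were Gabarap, which binds GABA-A receptors and serves in autophagy (155, 144, 135 and 127), and Nlgn2, the adhesion protein neuroligin 2 of inhibitory synapses (148, 86.9, 134 and 139). Cacng2, which encodes the AMPA receptor partner stargazin, had a peak in the first H3K9cr library (4.88) and the second H3K9ac library (5.54) only. Of 23 genes for the synthesis, transport and breakdown of glutamate, GABA and glycine, 20 (87.0%) were occupied in every library, with median percentiles of 64.9, 60.7, 56.8 and 61.1, led by the glycine transporter gene Slc6a9 (115, 121, 80.6 and 124) and the glutaminase gene Gls2 (87.5, 89.8, 68.2 and 104). The GABA transporter gene Slc6a11 had a peak in 3 libraries (5.58 and 5.72 for H3K9cr and 5.14 in the second H3K9ac library), and the transporter genes Slc17a8 and Slc1a1 had none. For both lists these medians lie above the 54.4, 54.6, 47.7 and 52.3 of the receptor genes and Grid2ip. They lie below the 77.7, 77.7, 75.6 and 77.2 of all occupied genes. Of all autosomal protein-coding genes, 69.5% were occupied in every library. None of these differences was tested.

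Other channel families were read last. Among 25 genes of nicotinic, serotonin and ATP-gated channels, 19 (76%) were occupied in every library and 6 in none, beside 69.5% of all genes. The median percentiles of their strongest peaks were 52.7, 47.7, 45.7 and 46.2. The highest values were at the fetal muscle subunit gene Chrng (99.8, 112, 92.2 and 112), followed by P2rx3 (68.1, 80.1, 46.2 and 101). For the channel lists too, peaks at neighbouring coding genes were not set apart. Among 79 potassium channel genes, 65 (82.3%) were occupied in every library, with median percentiles of 53.5, 55.2, 50.7 and 55.4 for their strongest peaks. The difference from the receptor genes and Grid2ip was not tested.

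Marker genes were read for the labelled cell type. Of 10 markers of undifferentiated embryonal carcinoma cells, 9 were occupied in every library, at a median percentile of 81.5 to 86.0, while Zfp42 had a peak in the second H3K9ac library alone. All 9 neuronal markers measured were occupied too, at 57.5 to 64.1. So were 4 of 5 glial (40.7 to 51.1), 3 of 6 fibroblast (46.3 to 51.3) and 5 of 7 endoderm and trophoblast markers (38.1 to 44.9). Of all autosomal protein-coding genes, 69.5% were occupied in every library, at a median percentile of 75.6 to 77.7. The marker lists are short, and their shares were not tested against this background. Marker occupancy was not limited to the labelled cell type, and its part in the occupancy of the receptor genes was not tested.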

How the data were processed

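Native ChIP-seq libraries of P19 cells, 2 for H3K9cr and 2 for H3K9ac, were grouped and numbered by the labels' titles; the 2 inputs were not analysed here. The submitters' processing notes name Bowtie2 2.4.1, MACS2 2.2.7.1 and the build GRCm38; no options are given there. The authors deposited 1 peak list per library, not pooled. Per the file headers, each peak has a position, a pileup (the coverage signal at the summit), a -log10 p-value, a -log10 q-value and a fold enrichment ratio. Read depth is unknown, so no counting interval is given. Depth and signal both set how many and how wide the peaks are, and the lists do not separate them.

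Peaks were assigned to gene records of the RefSeq table (GRCm38.p6), counted from 1, with 2.5 kb on each side and an overlap of at least 1 bp; peaks of the 4 libraries that overlapped or touched were merged into regions. "At a start or end" means within 1 kb. Promoter sequences and strands came from RefSeq (GRCm38.p6). Covered length was fitted with limma 3.58.1 in R 4.3.3 (trended eBayes, log2, centred on the library median) over all autosomal protein-coding genes with a peak in every library, with Benjamini-Hochberg adjustment at 0.05. Single values were compared by exact permutation. Other steps used Python 3.11.15, numpy 2.4.6, pandas 2.3.3 and matplotlib 3.10.9, and the overlap and limma steps were tested on simulated data.

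The genes, lists and tests were chosen with earlier results of these data known. Values per library are given by a rule: the 12 genes with the highest and the 3 with the lowest fold enrichment in their weakest library, all with a peak in 1 to 3 libraries, the 3 largest differences in covered length in each direction, the 5 with the most regions, and the longest peak. A few genes of the set are not reported here by name. Other genes of the set named with values, the further start sequence of Grin1, the genes listed by non-overlap and those singled out by promoter CG content were chosen after their values were seen. Of the other lists, the 2 strongest genes and those with a peak in 1 to 3 libraries are named. The alternatives tried were other windows, summits in place of peaks, a stricter threshold (-log10 q of at least 10), equal numbers of peaks, other scales and centring, a replicate block and leaving out each library.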

Additional observations from a re-analysis of the deposited data

How the results depend on the processing

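The number of receptor genes (with Grid2ip) occupied in every library was 40 with a window of 1 kb, with the gene record alone, with summits in place of peaks, with equal numbers of peaks and, in an alternative chosen after seeing the data, without regions at other coding genes. Under the other windows, summits and equal numbers of peaks, 67.9% to 69.3% of all genes were occupied in every library, beside 69.5% in the main setting. With a -log10 q of at least 10 the number was 36, while the share of all genes was 67.7%. Gabrd, Glra3 and Grin3a were among those lost. Leaving out each library in turn gave 40 to 41. Regions with a peak in every library numbered 56 with the stricter threshold, and 64 to 72 otherwise. The difference between marks in genes with a peak was 0.5 under the stricter threshold and when each list was cut to the same number of peaks (exact permutation p = 1).

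For covered length, limma called 0 genes under all 10 alternatives, with 592 to 1646 genes at an unadjusted p under 0.05, against 849 in the reported fit. The highest count, 1646, came without H3K9ac replicate 2, and the cause was not tested. With the replicate number as a block (replicate block), limma called 0 genes, 896 genes had an unadjusted p under 0.05 and the smallest adjusted p was 0.753. Deviations of libraries with the same number correlated with r = 0.137 across all genes tested and 0.219 across the 40 genes of the set, which are not independent replicates; with 2 pairs and no label of shared origin, the numbers were not treated as pairs. None of the 6 largest differences in covered length, 3 in each direction, changed direction under the 10 alternatives, and the smallest adjusted p among them was 0.295. Without centring, the median difference over all genes moved from -0.01 to 0.08 on the log2 scale. Leaving out 1 library left the number of the 40 genes with H3K9cr wider between 12 (without H3K9ac replicate 1) and 23 (without H3K9ac replicate 2, where 41 genes were tested), beside 20 with all libraries; a fit with 1 library of a mark assumes that it varies like the others. Sites below the peak caller's threshold are not listed, which limits what can be seen at weak sites.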
